A study of Mus musculus with 10 samples.

Results

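Small leucine-rich proteoglycans (SLRPs) are secreted matrix proteins built on a core of leucine-rich repeats, and many of them carry chondroitin, dermatan or keratan sulfate chains. They bind collagen fibrils and limit their thickness, and several also bind growth factors of the TGF-beta family. Versican is a much larger proteoglycan that binds hyaluronan and is abundant in provisional and fetal matrix. In the lung these proteins are made mainly by fibroblasts and smooth muscle cells of the septa, airways and vessels.

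The genes described here are 10 of the 54532 rows of the deposited expression table, and were chosen by name. They encode biglycan (Bgn), decorin (Dcn), asporin (Aspn), lumican (Lum), fibromodulin (Fmod), prolargin (Prelp), osteomodulin (Omd), osteoglycin (Ogn), podocan (Podn) and versican (Vcan), and each name matched 1 row. The table holds bulk RNA-sequencing of lungs from wild-type C57/BL6 pups at P14, with 5 IncPBF and 5 sham lungs. At P7 the IncPBF pups had received a fistula by needle puncture between abdominal aorta and inferior vena cava, and the sham pups the same operation without the puncture. Values are FPKM, a fragment density that the authors scaled to exon length and library size.

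The fragments on genes, recovered from FPKM and gene length, numbered 16103423 to 20318525 per lung. The 10 genes had 12 to 26064 fragments in a lung, and all therefore lay above a floor of 3 fragments. All passed the filter of a mean of at least 0.5 FPKM over the 10 lungs. Omd passed it only through the sham group, with means of 0.402 FPKM in IncPBF and 2.07 FPKM in sham. These limits cover counting error only. The lung markers Sftpc, Sftpb, Ager, Scgb1a1 and Pecam1 summed to 14288 FPKM or more in every lung, and 3 of the 5 were lower in the IncPBF group. Sftpc made up most of this sum, at 9583 to 14074 FPKM. Scgb1a1 was 128 FPKM in sham lung 5 and 5116 to 11743 FPKM in the other sham lungs, so the lungs were not alike in all markers. Male or female pups were used according to the methods. Xist, made from the inactive X chromosome, lay between 52.4 and 66.5 FPKM in IncPBF lungs 2 to 5, while IncPBF lung 1 (0.0144 FPKM) was like the sham lungs (0.00640 to 0.0770 FPKM). Surgery and sex-linked expression can therefore be told apart only through IncPBF lung 1. The labels give neither litters nor batches, so p-values measure the spread between these 10 lungs. In bulk tissue, fewer cells of a type and less RNA per cell cannot be told apart.

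Versican rose, and osteoglycin, prolargin and osteomodulin fell in the IncPBF group, each more than 2-fold and without overlap of the groups. Podocan fell by a smaller amount. Biglycan, with the highest level of the 10 genes in the IncPBF lungs, was at 206 ± 5.08 FPKM against 212 ± 21.7 FPKM in the sham lungs (SD, n = 5 each). The differences of asporin, fibromodulin, decorin and lumican did not pass the test. In limma over the 15388 genes with a mean of at least 0.5 FPKM, 5 of these 10 reached an adjusted p under 0.05, against 32.3% of all genes tested. Of these, 4 were lower (16.2% of all genes) and 1 was higher (16.1% of all genes). A difference that was called and also at least 2-fold was found for 4 of the 10 genes and for 3.06% of all genes. In 4 of the 10 genes the groups did not overlap, against 23.2% of all genes. The median log2 fold change was -0.48 over the 10 genes and 0.01 over all genes tested. With Xist (log2 FPKM) as covariate in limma, 4 of the 10 genes (Ogn, Prelp, Omd and Vcan) had an adjusted p under 0.05, against 4.82% of all genes.

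**Figure D1:**
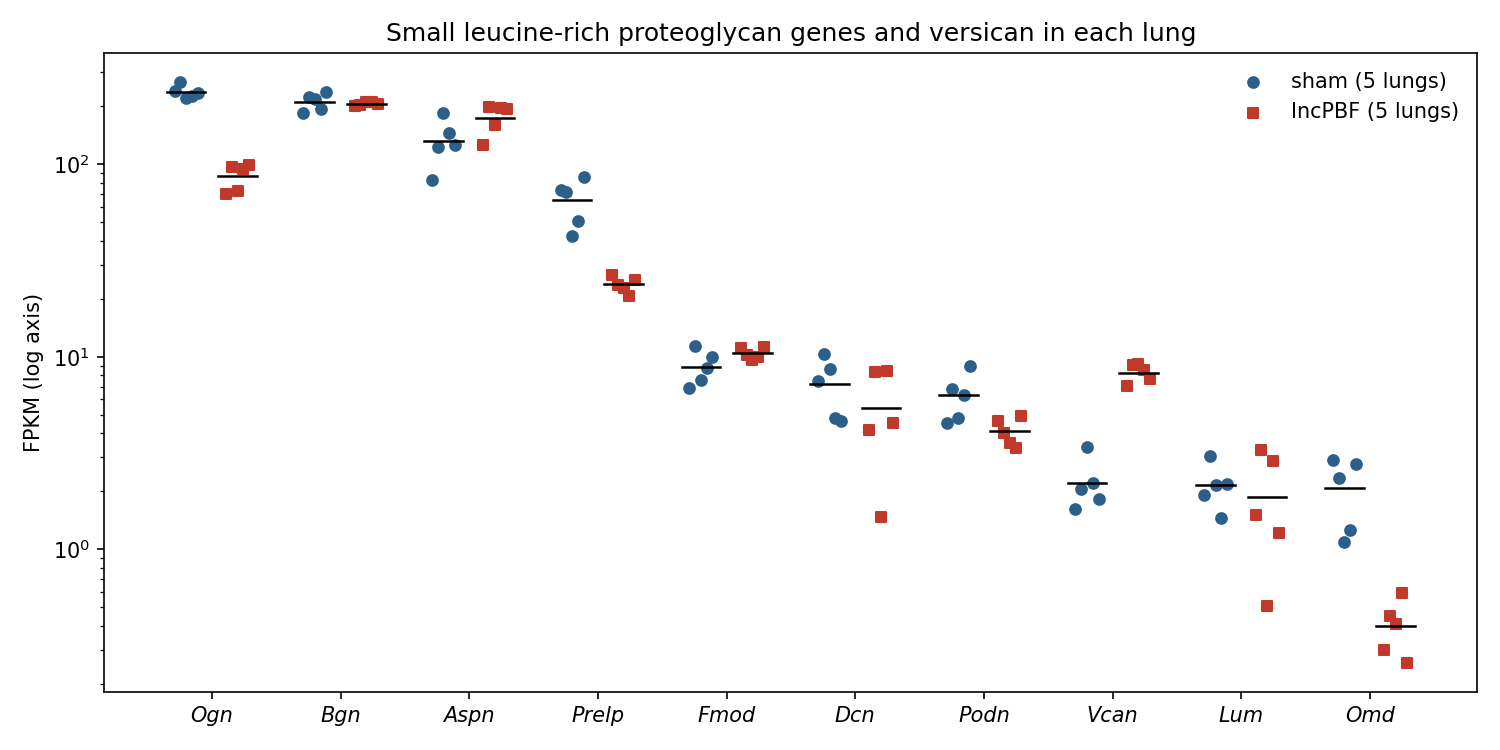
FPKM of the 10 genes on a log axis, ordered by their mean in the sham lungs, with 1 symbol per lung (sham circles, IncPBF squares) and the group mean as a line. All 5 IncPBF lungs lie below all 5 sham lungs for Ogn, Prelp and Omd and above them for Vcan, and the groups overlap for the other 6 genes.

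Biglycan, decorin and asporin form class I of the family, of which biglycan and decorin carry chondroitin or dermatan sulfate. Biglycan (Bgn, ENSMUSG00000031375) lies on chromosome X of GRCm38 from 73483602 to 73495933 and binds collagen, TGF-beta and the receptors Tlr2 and Tlr4. It was 199.7, 202, 210.4, 212 and 206 FPKM in IncPBF lungs 1 to 5 and 185, 224, 218, 193 and 237 FPKM in sham lungs 1 to 5. All IncPBF values fell inside the range of the sham lungs and were closer together, with a coefficient of variation of 2.47% against 10.2%. The log2 fold change was -0.03 with a 95% interval of -0.19 to 0.13 (limma adjusted p = 0.765), and its sign turned with an equal total per lung (0.05), with quantile normalization and without sham lung 5. Between 20260 and 26064 fragments per lung stand behind these values. Biglycan is the only X-linked gene of the 10, and IncPBF lung 1, with low Xist, lay just below the other IncPBF lungs.

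Decorin (Dcn, ENSMUSG00000019929, chromosome 10 from 97479609 to 97518143), which coats collagen fibrils and binds TGF-beta, was the most variable gene of class I. Its level was 4.17, 8.34, 1.46, 8.46 and 4.51 FPKM in IncPBF lungs 1 to 5 and 7.50, 10.3, 8.66, 4.82 and 4.62 FPKM in sham lungs 1 to 5. IncPBF lung 3 was the lowest of all 10 lungs, and IncPBF lungs 2 and 4 were among the sham lungs. Its log2 fold change was -0.57 (95% interval -1.50 to 0.36, limma adjusted p = 0.334), and -0.18 without IncPBF lung 3. The interval includes a fall of more than 2-fold, so these lungs do not show that decorin was unaltered.

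Asporin (Aspn, ENSMUSG00000021388, chromosome 13 from 49544443 to 49567565) has a stretch of aspartate in place of the glycan chains and binds collagen and TGF-beta. It was 126, 197, 161, 195 and 193 FPKM in IncPBF lungs 1 to 5 and 82.7, 123, 184, 146 and 126 FPKM in sham lungs 1 to 5. In 3 IncPBF lungs the level was above that of all sham lungs, while IncPBF lungs 1 and 3 lay within the sham range. The means were 174 ± 30.9 and 132 ± 36.9 FPKM (SD, n = 5 each), and the log2 fold change was 0.42 with a 95% interval of -0.01 to 0.85 and a limma adjusted p of 0.1197. Without sham lung 3 it was 0.55 with a limma adjusted p of 0.0349. With Xist (log2 FPKM) as covariate the log2 fold change was -0.05 (limma adjusted p = 0.943). IncPBF lung 1 differed from the sham mean by -0.03 and the other IncPBF lungs by 0.54 on average on the log2 scale.

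Lumican, fibromodulin, prolargin and osteomodulin are class II genes, and some products of this class can carry keratan sulfate. Lumican (Lum, ENSMUSG00000036446), known from the transparency of the cornea, lies on chromosome 10 from 97565128 to 97572703, 46985 bases from decorin. It was 1.50, 3.27, 0.509, 2.86 and 1.22 FPKM in IncPBF lungs 1 to 5 and 1.91, 3.06, 2.15, 1.45 and 2.18 FPKM in sham lungs 1 to 5. As for decorin, IncPBF lung 3 was the lowest and IncPBF lungs 2 and 4 were the highest of their group. On the log2 scale the difference was -0.40 (95% interval -1.29 to 0.50, limma adjusted p = 0.490), and -0.03 without IncPBF lung 3. The ratio of Dcn to Lum FPKM was 2.55 to 3.70 in IncPBF and 2.12 to 4.03 in the sham lungs, with means of 2.97 ± 0.434 and 3.35 ± 0.760 (SD, n = 5 each). In the IncPBF group this ratio varied less than either gene, whose coefficients of variation were 55.5% for Dcn and 61.8% for Lum.

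Fibromodulin (Fmod, ENSMUSG00000041559, chromosome 1 from 134037254 to 134048277) binds collagen and takes part in its cross-linking. It was 11.2, 10.2, 9.64, 10.03 and 11.3 FPKM in IncPBF lungs 1 to 5 and 6.84, 11.4, 7.57, 8.74 and 9.97 FPKM in sham lungs 1 to 5. The IncPBF lungs were in the upper part of the sham range, and sham lung 2 was the highest of all. On the log2 scale the difference was 0.25 (95% interval -0.02 to 0.52, limma adjusted p = 0.137). The adjusted p from limma was 0.0325 without sham lung 2 and 0.0433 with an equal total per lung.

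Prolargin (Prelp, ENSMUSG00000041577, chromosome 1 from 133910304 to 133921414), which binds collagen and heparan sulfate and links basement membranes to the tissue around them, lies 115840 bases from fibromodulin on the opposite strand. Its level was 26.5, 23.5, 22.9, 20.8 and 25.1 FPKM in IncPBF lungs 1 to 5 and 73.2, 72.0, 42.4, 50.8 and 85.9 FPKM in sham lungs 1 to 5. The IncPBF lungs were close together and all below the sham lungs, of which lungs 3 and 4 came nearest. The mean fell 2.73-fold, from 64.9 ± 17.8 to 23.8 ± 2.19 FPKM (SD, n = 5 each). The log2 fold change was -1.40 (standard error, SE, 0.17, limma adjusted p = 0.000167), and -1.19 (adjusted p = 0.0472) with Xist (log2 FPKM) as covariate. Prelp shares 350 exonic bases with the antisense gene Gm15851, which had a mean of 0.0156 FPKM in IncPBF and 0.0174 FPKM in the sham group. Whether counting used strand is not given in the sources used here.

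Osteomodulin (Omd, ENSMUSG00000048368, chromosome 13 from 49582462 to 49592822), also called osteoadherin and best known from bone and teeth, had the lowest mean level of the 10 genes and the largest fall. It was 0.299, 0.451, 0.409, 0.593 and 0.257 FPKM in IncPBF lungs 1 to 5 and 2.90, 2.34, 1.09, 1.26 and 2.78 FPKM in sham lungs 1 to 5. The groups did not overlap, and sham lungs 3 and 4 were again nearest to the IncPBF lungs. The means were 0.402 ± 0.133 and 2.07 ± 0.851 FPKM (SD, n = 5 each), 5.16-fold lower in the IncPBF group. For Omd the log2 fold change was -2.05 (SE 0.30, limma adjusted p = 0.000548), and -2.27 (adjusted p = 0.0385) with Xist (log2 FPKM) as covariate. Only 12 to 23 fragments per lung in IncPBF and 46 to 117 in the sham group stand behind these values. The gene passed the filter on the mean over all lungs only through the sham group.

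Osteoglycin (Ogn, ENSMUSG00000021390, chromosome 13 from 49608046 to 49624501), also called mimecan, belongs to class III and is made by fibroblasts, smooth muscle and bone cells. Its level was 70.1, 96.5, 73.0, 94.6 and 99.6 FPKM in IncPBF lungs 1 to 5 and 241, 267, 221, 226 and 235 FPKM in sham lungs 1 to 5. The highest IncPBF lung was far below the lowest sham lung, and IncPBF lung 1 was the lowest of all. The mean fell 2.74-fold, from 238 ± 18.2 to 86.8 ± 14.1 FPKM (SD, n = 5 each). The log2 fold change was -1.47 (SE 0.11, limma adjusted p = 1.04e-05), and the exact permutation p of 0.00794, shared with Prelp, Omd and Vcan, is the smallest that 5 lungs against 5 allow. With Xist (log2 FPKM) as covariate it was -1.73 (SE 0.16, limma adjusted p = 0.000816). By size of the log2 fold change, osteoglycin ranked above 98.5% of all genes tested.

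Osteoglycin, osteomodulin and asporin lie side by side on the plus strand of chromosome 13, with 15224 bases between Omd and Ogn and 14897 between Aspn and Omd. The first pair fell, whereas the difference of asporin did not pass the test. Ecm2, which encodes another leucine-rich matrix protein and lies next to asporin, was 9.23 ± 0.751 FPKM in IncPBF and 9.95 ± 0.676 FPKM in the sham group (log2 fold change -0.11, limma adjusted p = 0.257). On the other side of osteoglycin, Nol8 differed by 0.10 on the log2 scale (adjusted p = 0.486) and Iars rose by 0.20 (adjusted p = 0.0178) in the same fit. Cenpp, which runs over these genes on the minus strand and shares 7 exonic bases with Aspn, rose from 0.736 to 1.16 FPKM (limma adjusted p = 0.0142). The ratio of Aspn to Ogn FPKM, a measure chosen after the values were seen and not tested, was 1.80 to 2.20 in IncPBF and 0.344 to 0.834 in the sham lungs. In every IncPBF lung asporin was thus above osteoglycin, and in every sham lung below it.

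**Figure D2:**
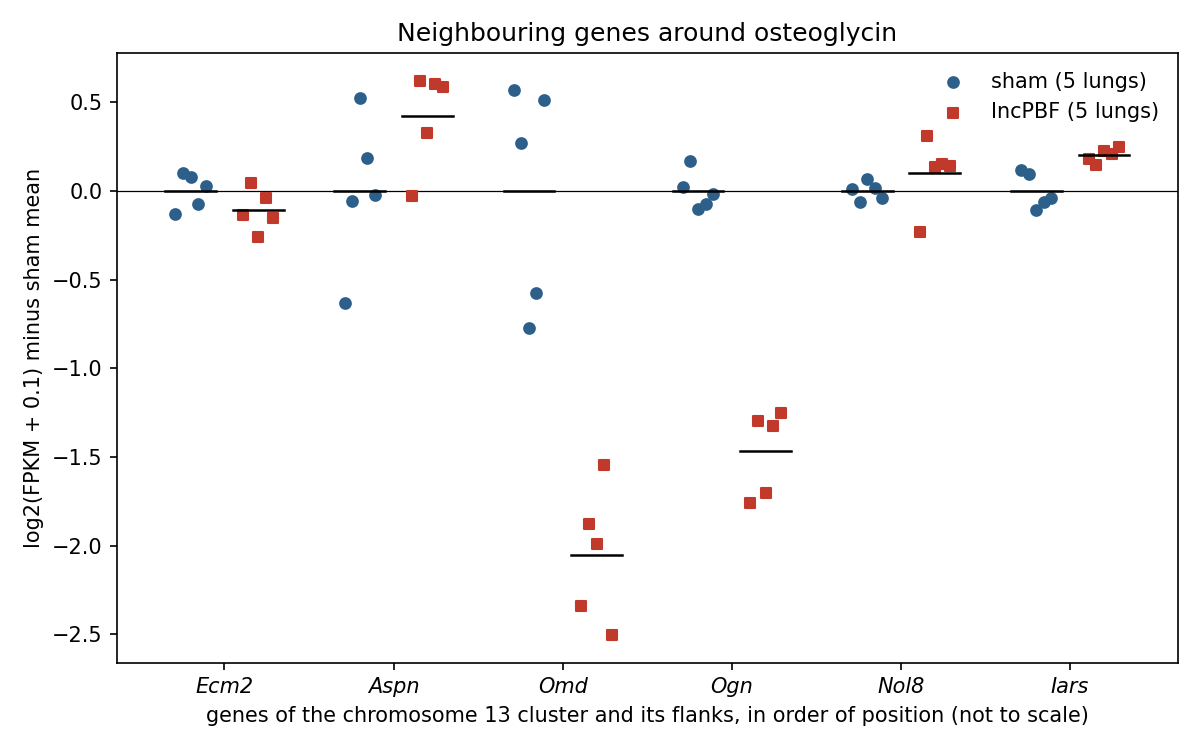
Log2(FPKM + 0.1) of each lung minus the sham mean, on the vertical axis, for the chromosome 13 cluster (Ecm2, Aspn, Omd, Ogn) and the genes after it (Nol8, Iars) in order of position, with sham circles, IncPBF squares and group means as lines. Omd and Ogn lie at means of -2.05 and -1.47 in the IncPBF lungs, while the other 4 genes lie between -0.11 and 0.42.

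The sequence before each of these 3 starts is shown because 2 of these neighbours fell and the difference of the other did not pass the test. It covers the 250 bases upstream of the RefSeq start in build GRCm38.p6, 5′ to 3′ on the gene's strand, with capitals for matches to 7 short motifs on either strand.
Ogn, chr13:49607765-49608014, plus strand: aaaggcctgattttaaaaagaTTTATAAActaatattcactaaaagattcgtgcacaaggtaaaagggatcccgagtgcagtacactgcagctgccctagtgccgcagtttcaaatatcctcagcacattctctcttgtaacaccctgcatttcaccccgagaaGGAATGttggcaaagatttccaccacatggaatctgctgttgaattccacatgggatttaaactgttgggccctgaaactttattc
Omd, chr13:49582212-49582461, plus strand: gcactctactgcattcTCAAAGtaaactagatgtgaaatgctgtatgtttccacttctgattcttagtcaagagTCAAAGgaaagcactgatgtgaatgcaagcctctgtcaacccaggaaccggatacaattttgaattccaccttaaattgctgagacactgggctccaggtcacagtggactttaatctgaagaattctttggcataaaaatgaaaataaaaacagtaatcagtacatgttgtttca
Aspn, chr13:49544193-49544442, plus strand: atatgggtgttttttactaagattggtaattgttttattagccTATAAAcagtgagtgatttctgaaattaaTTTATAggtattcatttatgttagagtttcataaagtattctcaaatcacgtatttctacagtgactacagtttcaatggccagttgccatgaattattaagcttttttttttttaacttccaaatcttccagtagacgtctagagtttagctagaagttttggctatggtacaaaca
The motifs were the TATA box TATAAA, found in 12.4% of all 32851 RefSeq windows of this length, AP-1 TGANTCA (6.75%), TEAD CATTCC (12.6%), SMAD CAGACA (17.1%), TCF/LEF CTTTGA (13.8%), GLI ACCACCC (3.92%) and the steroid receptor motif AGAACA (16.1%). The Ogn window held TATAAA on both strands in overlapping letters, 222 to 229 bases before the start, and CATTCC on the minus strand from 86 to 81 bases before it. In the Omd window, CTTTGA was found on the minus strand from 234 to 229 and from 176 to 171 bases before the start. In the Aspn window, TATAAA was found on the plus strand from 207 to 202 and on the minus strand from 178 to 173 bases before the start. Among these 3 windows TATAAA was thus held by Ogn and Aspn, and each other motif that matched by a single gene. All 3 were poor in GC, at 42.0% for Ogn, 38.4% for Omd and 30.0% for Aspn against a median of 52.4% over all windows. Of all windows, 15.9%, 9.05% and 1.47% had a lower GC content than these. Outside the cluster, the window of Prelp (55.6% GC) and that of Vcan (62.4% GC) held none of the 7 motifs, nor did those of Fmod and Podn. The window of Bgn held CTTTGA, as that of Omd did, on the plus strand from 146 to 141 bases before the start. It also held AGAACA on the minus strand from 241 to 236 bases before the start. RefSeq windows were found for 8 of the 10 genes, without Dcn and Lum. These matches describe letters only.

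Podocan (Podn, ENSMUSG00000028600, chromosome 4 from 108014791 to 108096445) is an SLRP outside the main classes that is known from vessel walls, where it limits growth of smooth muscle cells. It was 4.63, 4.01, 3.56, 3.34 and 4.95 FPKM in IncPBF lungs 1 to 5 and 4.54, 6.79, 4.80, 6.33 and 8.998 FPKM in sham lungs 1 to 5. In 3 IncPBF lungs the level was below that of all sham lungs, and IncPBF lungs 1 and 5 overlapped with sham lungs 1 and 3. The means were 4.10 ± 0.686 and 6.29 ± 1.79 FPKM (SD, n = 5 each), and the log2 fold change was -0.58 (SE 0.18, limma adjusted p = 0.0296, exact permutation p = 0.0397). This call was lost in 8 of 21 alternatives. The adjusted p from limma was 0.558 with Xist (log2 FPKM) as covariate, 0.0616 with no filter on low genes, and 0.0523 to 0.0717 without IncPBF lung 2, 3 or 4 or sham lung 2, 4 or 5.

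Versican (Vcan, ENSMUSG00000021614, chromosome 13 from 89655312 to 89742509, minus strand) was the one gene of the 10 called higher. Its level was 7.05, 9.02, 9.12, 8.54 and 7.65 FPKM in IncPBF lungs 1 to 5 and 1.62, 2.06, 3.39, 2.21 and 1.81 FPKM in sham lungs 1 to 5. IncPBF lung 1, the lowest of its group, was above sham lung 3, the highest of the other. The mean rose 3.73-fold, from 2.22 ± 0.691 to 8.27 ± 0.900 FPKM (SD, n = 5 each). Versican's log2 fold change was 1.89 (SE 0.17, limma adjusted p = 2.40e-05), and 1.62 (adjusted p = 0.0128) with Xist (log2 FPKM) as covariate. Behind these values stand 1970 to 2444 fragments per lung in IncPBF and 421 to 922 in the sham group. Of its tested neighbours, Xrcc4, a gene of DNA repair 31518 bases away, differed by -0.13 on the log2 scale (limma adjusted p = 0.360). The other, Hapln1, which encodes a link protein that ties proteoglycans to hyaluronan and lies 43660 bases away, differed by 0.07 (limma adjusted p = 0.802). The antisense gene Gm4117, which overlaps Vcan, was at means of 0.0304 and 0.0328 FPKM.

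**Figure D3:**
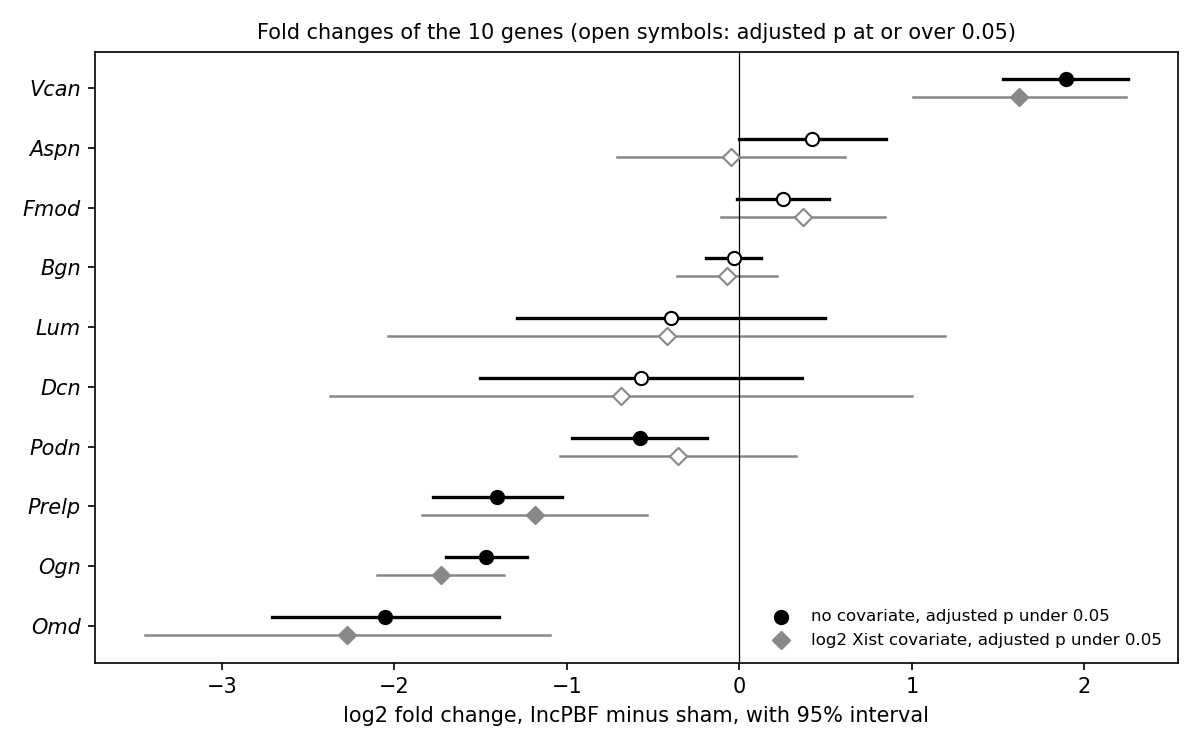
Log2 fold change of the 10 genes, IncPBF minus sham, with 95% intervals from limma, without a covariate (black circles) and with Xist (log2 FPKM) as covariate (grey diamonds), filled where the adjusted p was under 0.05. Vcan, Prelp, Ogn and Omd are filled in both fits, Podn only without the covariate, and the intervals are wider with it.

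For the 4 genes whose groups did not overlap, the direction of each single IncPBF lung against the sham lungs was fixed by that lack of overlap, and only the size could vary. On the log2 scale IncPBF lung 1, the only one of its group with low Xist, differed from the sham mean by -1.76 for Ogn, -1.24 for Prelp, -2.34 for Omd and 1.67 for Vcan. The corresponding means of IncPBF lungs 2 to 5 were -1.39, -1.44, -1.98 and 1.95. Leaving out each lung in turn kept all 4 calls, with log2 fold changes of -1.52 to -1.39 for Ogn, -1.54 to -1.29 for Prelp, -2.24 to -1.91 for Omd and 1.79 to 2.05 for Vcan. Sham lung 3 was the sham lung nearest to the IncPBF lungs for all 4 genes, and it had the highest asporin of the sham group.

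By level per exon length, the order in the IncPBF group was biglycan, asporin, osteoglycin, prolargin and fibromodulin, whose ranges did not overlap between neighbours. They were followed by versican, decorin and podocan, then lumican and osteomodulin, with overlapping ranges from versican to podocan and for the last pair. In the sham group osteoglycin and biglycan came first with overlapping ranges, then asporin and prolargin, which also overlapped although asporin was higher in all 5 lungs. Fibromodulin, decorin and podocan followed with overlapping ranges, and versican, lumican and osteomodulin came last and also overlapped. The deposited length of Dcn, 5838 bases, joins the exons of all its transcripts and is 3.32 times its longest coding transcript, and that of Bgn is 2.52 times. Per longest coding transcript, chosen as a length after the data were seen, decorin was 17.9 and 23.8 FPKM in the IncPBF and sham groups and biglycan 519 and 533 FPKM, so that biglycan came before osteoglycin in the sham group too.

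The summed level of the 10 genes was 521 ± 47.9 FPKM (451 to 556) in IncPBF and 676 ± 49.9 FPKM (607 to 723) in sham (SD, n = 5 each). Osteoglycin made up 16.6% ± 1.32 of this sum in IncPBF and 35.3% ± 3.15 in the sham lungs. Asporin made up 33.2% ± 3.17 and 19.5% ± 5.10, and biglycan 39.8% ± 3.53 and 31.3% ± 1.17. For each of these 3 genes the shares of the groups did not overlap, although neither asporin nor biglycan was called in its own level. Versican made up 1.59% ± 0.172 and 0.328% ± 0.0961. Shares of one sum are not independent of each other, and were not tested.

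**Figure D4:**
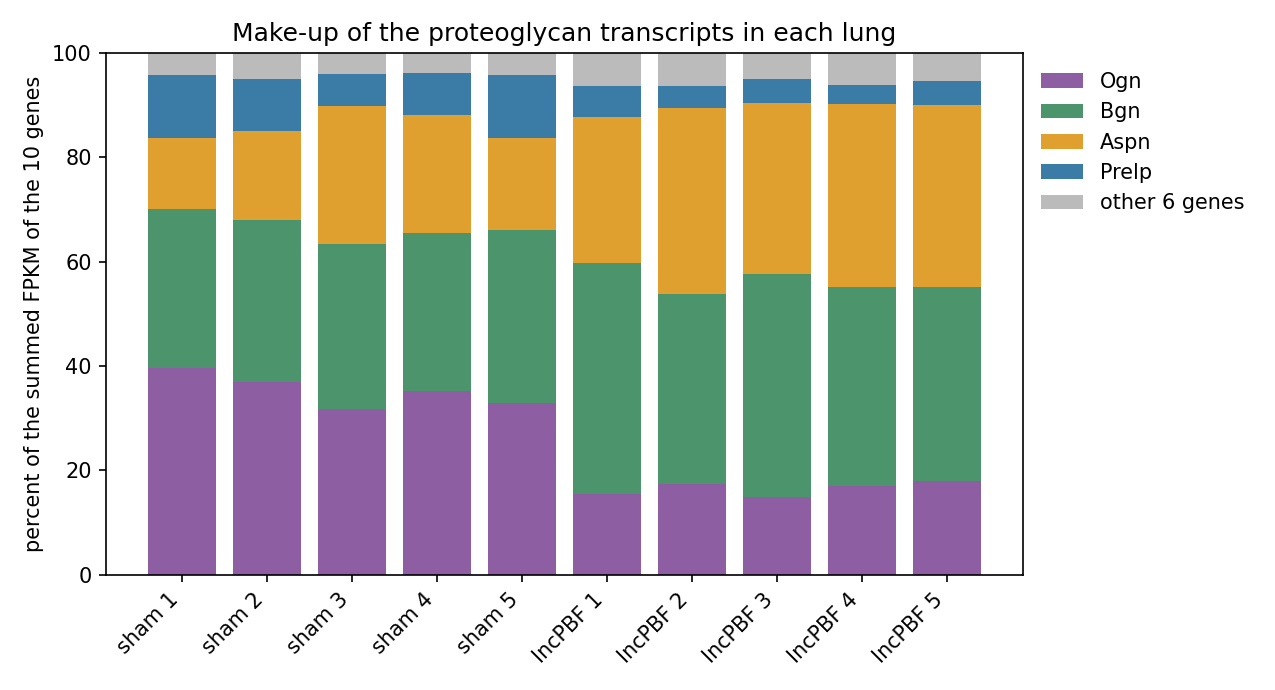
Share of the summed FPKM of the 10 genes taken by Ogn, Bgn, Aspn, Prelp and the other 6 genes, in percent, as 1 stacked bar per lung. Ogn takes 31.8% to 39.6% in the sham lungs and 14.8% to 18.0% in the IncPBF lungs, and Aspn takes 13.6% to 26.6% and 27.9% to 35.5%.

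Genes that modify, cut or bind these proteins were taken from 7 lists. Of all genes tested, 16.1% were called higher and 16.2% lower in IncPBF, and 23.2% had no overlap of the groups. The counts of each list are given beside these shares, and no list was tested as a set. Of the proteases that cut versican, 5 of 6 were tested, of which 2 rose and 2 fell. Adamts4 rose from 1.00 ± 0.164 to 2.75 ± 0.184 FPKM (log2 fold change 1.38, limma adjusted p = 1.74e-05) and Adamts5 from 2.97 ± 0.302 to 4.43 ± 0.613 FPKM (adjusted p = 0.00261). Adamts15 fell from 27.7 ± 9.71 to 11.3 ± 1.15 FPKM (log2 fold change -1.23, limma adjusted p = 0.000923) and Adamts9 from 13.7 ± 1.49 to 9.60 ± 0.815 FPKM (adjusted p = 0.00130). None of these 4 had overlapping groups, which adds no support because they were named for being called in the same lungs. With Xist (log2 FPKM) as covariate the call of Adamts15 was lost, at -1.07 (limma adjusted p = 0.1098), and the other 3 were kept. The median log2 fold change of the list was 0.20.

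Of the genes for synthesis of chondroitin and dermatan sulfate chains, 21 of 22 were tested, of which 7 rose, 7 fell and 7 did not pass, with a median of -0.02. Chsy3, which polymerises chondroitin, rose from 1.69 ± 0.162 to 4.84 ± 0.480 FPKM (log2 fold change 1.46, limma adjusted p = 4.47e-06). Xylt1, which adds the first sugar to the core protein, rose from 0.828 ± 0.109 to 1.86 ± 0.145 FPKM (adjusted p = 7.91e-05). The sulfotransferases Chst15 and Chst3 fell, from 17.7 ± 2.16 to 6.88 ± 0.727 FPKM (limma adjusted p = 6.87e-06) and from 15.1 ± 2.98 to 7.41 ± 0.811 FPKM (adjusted p = 0.000461). The groups did not overlap for any of these 4. They were chosen by size of fold change among called genes, so this adds no support. All 4 genes for keratan sulfate synthesis were tested, of which 1 fell, the sulfotransferase Chst1 (from 11.0 ± 1.86 to 8.14 ± 0.802 FPKM, limma adjusted p = 0.0138), and the median was -0.21.

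Of the fibril collagens and those of the fibril surface, 11 of 14 were tested, of which 6 rose and 2 fell, with a median of 0.26. Col12a1, a collagen of the fibril surface, rose from 5.04 ± 0.700 to 11.2 ± 2.02 FPKM (log2 fold change 1.12, limma adjusted p = 0.000159), and by 0.72 (adjusted p = 0.0550), no longer passing the test, with Xist (log2 FPKM) as covariate. Col5a1, of the fibril core, and Col14a1 rose by 0.39 and 0.38 on the log2 scale (limma adjusted p = 0.00441 and 0.0139), while Col6a1 of the beaded filaments fell from 195 ± 13.4 to 146 ± 7.70 FPKM (limma adjusted p = 0.000662). Of the ligands and receptors that bind SLRPs or versican, all 13 were tested, of which 2 rose and 4 fell, with a median of -0.18. Tgfb2 and Tgfb3 rose by 1.17 (limma adjusted p = 3.05e-06) and 1.11 (adjusted p = 8.99e-05) on the log2 scale. Egfr and Lrp1, which bind decorin, fell by 0.65 (limma adjusted p = 0.00123) and 0.53 (adjusted p = 0.00881). For Tlr2 and Tlr4 the log2 fold changes were 0.02 (limma adjusted p = 0.925) and -0.27 (adjusted p = 0.172).

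Among other genes of small leucine-rich proteins, 3 of 10 were tested and 1 rose, tsukushi (Tsku), from 2.48 ± 0.869 to 3.76 ± 0.342 FPKM (limma adjusted p = 0.0286), with overlap of the groups and a loss of the call in 7 of 21 alternatives. The median of this list was 0.64, and Epyc was listed at 0 in all lungs. Of the relatives of versican and the link proteins, 2 of 7 were tested and 0 passed, nor did either have an unadjusted p under 0.05, with a median of -0.19. Aggrecan (Acan) was under the filter. With Xist (log2 FPKM) as covariate, the calls of the 7 lists were 0 for other leucine-rich genes, 0 for versican relatives, 3 for the proteases, 3 for chondroitin and dermatan sulfate, 0 for keratan sulfate, 1 for collagens and 3 for ligands and receptors. Over all genes tested, the share called with this covariate was 4.82%. Of the genes named here with a call, Tsku, Adamts15, Chst3, Chst1, Col12a1, Col5a1, Col14a1 and Lrp1 were no longer called with this covariate.

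**Figure D5:**
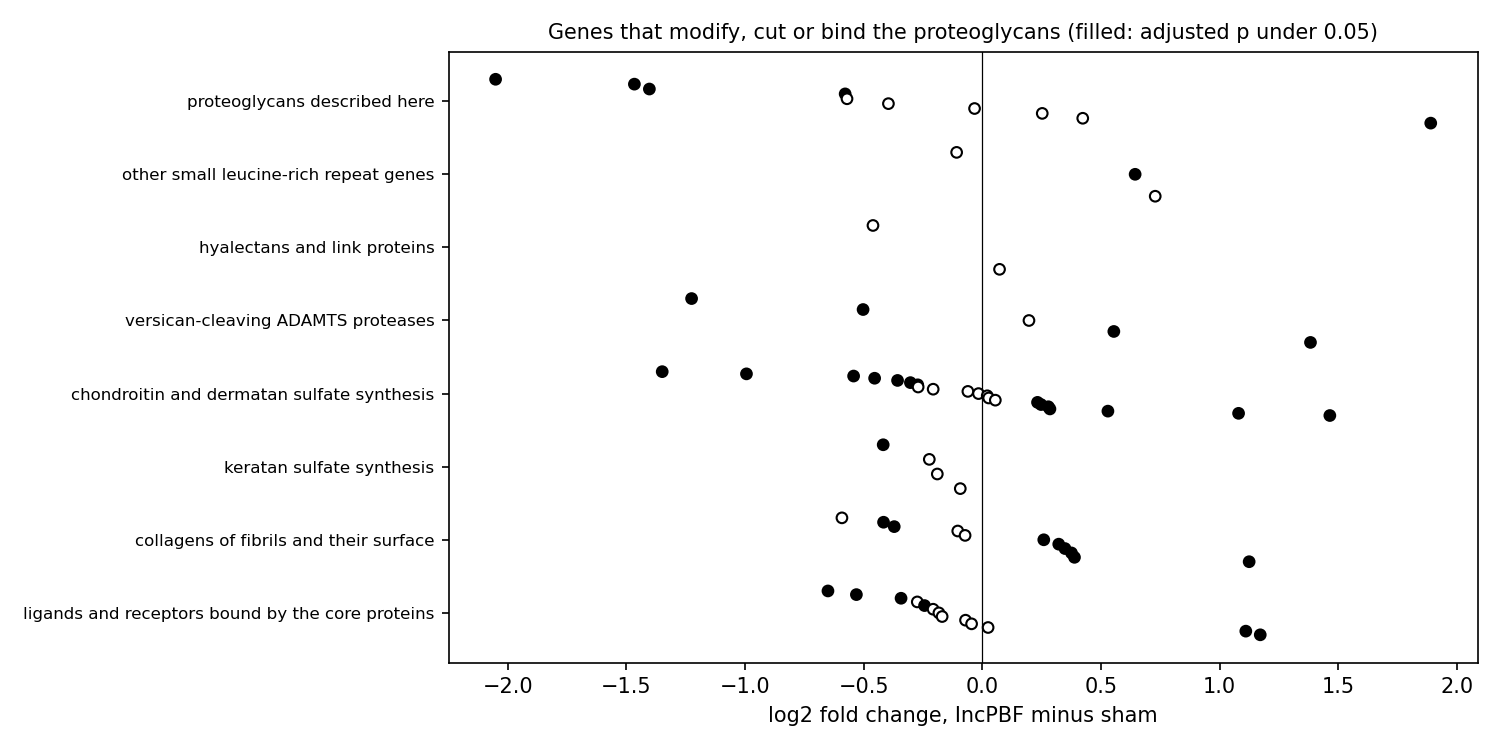
Log2 fold change, IncPBF minus sham, of each tested gene of the 10 proteoglycan genes and of 7 lists of genes that modify, cut or bind their products, 1 circle per gene and filled where the adjusted p from limma was under 0.05. Filled circles lie on both sides of 0 for the proteases, the chondroitin and dermatan sulfate genes, the collagens and the ligands and receptors.

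Some markers of the cell types that make these proteins differed between the groups, in directions that varied within most lists. Their part in the results was not tested. For comparison, 16.1% of all genes tested were called higher and 16.2% lower in IncPBF. Of 7 markers of myofibroblasts and smooth muscle, 5 rose and 0 fell, with a summed level of 321 to 615 FPKM in IncPBF and 115 to 252.2 FPKM in sham. Of 7 markers of alveolar fibroblasts, 1 rose and 3 fell, with 826 to 1036 FPKM against 1262 to 1792 FPKM. Neither sum overlapped between the groups, but most of the alveolar fibroblast difference came from 2 genes, Inmt, at 64.8 ± 23.2 against 502 ± 122 FPKM, and Npnt, at 334 ± 29.6 against 475 ± 73.3 FPKM. Without Inmt the sums overlapped, at 780 to 939 against 917 to 1126 FPKM. In the same list Tcf21 (107 against 109 FPKM) and Ces1d (138 against 148 FPKM) did not pass the test, and Gyg rose from 101 to 169 FPKM. Of 8 markers of adventitial fibroblasts, 3 rose (Dpt, Cd34 and Col14a1) and 2 fell (Ly6a and Dpp4), with 539 to 631 FPKM against 497 to 588 FPKM. Of 5 pericyte markers 1 rose and 1 fell (153 to 176 against 142 to 176 FPKM), and of 4 general markers of mesenchyme 1 rose and 1 fell (692 to 825 against 679 to 822 FPKM), the fall being that of Pdgfra, from 58.1 ± 12.4 to 22.4 ± 3.42 FPKM (limma adjusted p = 9.01e-05).

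Cells from the pleura and outside the lung also make SLRPs. Of 4 mesothelial markers 3 were tested and all 3 fell, each with overlap of the groups (summed level 19.5 to 43.4 against 38.5 to 98.0 FPKM). Of 6 cartilage markers only Sox9 passed the filter, and rose (sum of the list 1.05 to 2.06 against 0.767 to 1.21 FPKM), while Col2a1, Acan, Comp, Matn1 and Cnmd lay under it. Of 3 tendon markers 2 were tested and Scx rose (8.56 to 12.3 against 6.60 to 9.66 FPKM). Of 3 bone markers only Ibsp was above the filter, which it passed through the IncPBF lungs alone, with a mean of 0.973 ± 0.361 FPKM there and 0.114 ± 0.154 FPKM in the sham lungs. Bglap and Sp7 lay under the filter, and the sums of the bone list were 0.592 to 1.38 against 0 to 0.534 FPKM. Of 4 heart muscle markers 3 were tested and 0 passed (31.5 to 84.3 against 6.74 to 44.7 FPKM), with an unadjusted p from limma of 0.0642 or more. With Xist (log2 FPKM) as covariate, Pdgfra (limma adjusted p = 0.0350) and Inmt (adjusted p = 0.00929) were the marker genes still called, leaving 0 calls for myofibroblasts and smooth muscle, 0 for mesothelium and 0 for each remaining marker list. Whether the levels of these tissues moved decorin, lumican or osteomodulin was not tested.

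For the 3 of the 10 genes that varied most over the lungs, the most similar profiles were looked up among the other tested genes, leaving out all 10. Likeness was the root mean square difference of log2(FPKM + 0.1) centred on each gene's mean over the 10 lungs. Versican was nearest to Pdlim3 (0.134), which encodes a protein of muscle Z-lines, P2ry14 (0.147), a receptor for UDP-sugars, and Wnt11 (0.172), a Wnt ligand. Pdlim3 was 19.1 ± 2.30 FPKM in IncPBF and 5.34 ± 1.32 FPKM in the sham group. Osteomodulin was nearest to Wfdc6b (0.272), Crispld2 (0.281) and Gm44421 (0.284), of which Crispld2, a secreted protein of the lung mesenchyme, was 4.59 ± 0.527 against 22.1 ± 5.79 FPKM. The nearest genes to decorin, Iglc1 (0.399), Gabra3 (0.434) and Nrn1 (0.447), were farther away. Lumican, as one of the 10, could not be listed, and its distance to decorin is not given here. These profiles share the same 10 libraries and the difference between the groups, and describe likeness only.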

How the data were processed

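Lungs of 5 IncPBF and 5 sham pups were profiled by bulk RNA-sequencing, and 1 table of FPKM was deposited with gene lengths. The authors scaled fragments by gene length and library, dividing by 1.02 to 1.07 times (IncPBF) or 0.958 to 1.03 times (sham) the fragments on genes. The submitters' processing notes name Bowtie 0.12.2. The counting software and the use of strand are not given in the sources used here. IncPBF columns are abbreviated differently from the titles and could be given only a group, not single samples. FPKM times length gave whole fragments (tolerance 0.1) for 100% of values. Coordinates were equal to GENCODE M21 on GRCm38 for all 10 genes.

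Genes with a mean of at least 0.5 FPKM were tested on log2(FPKM + 0.1), which understates the change of low genes, with limma 3.58.1 (lmFit, eBayes with a trend) in R 4.3.3, and p-values were adjusted by Benjamini-Hochberg over all 15388. Exact permutation tests were two-sided and covered all splits into 5 and 5. The code of the fit was checked on simulated counts, with the same dispersion for all genes and set changes in well-covered genes only. This check does not cover genes as variable as Dcn and Lum. Lungs were compared for duplicates, and the closest pair (IncPBF 2 and 5) had a chi-square of 5.95 per gene, above sampling noise. Pandas 2.3.3 and matplotlib 3.10.9 were used in Python 3.11.15. The genes and lists were chosen with earlier results of these data known. All 10 genes were described, with up to 4 called genes of each of the 7 lists by size of log2 fold change. Some neighbours within 200 kb, mainly those of the chromosome 13 cluster and of Vcan, were described too. Those left out include called genes near Prelp (Atp2b4), Bgn (Slc6a8, Haus7 and Pnck) and Podn (Magoh and Echdc2). The 3 nearest profiles, from outside the 10, of the 3 most variable genes were also described. Tlr2, Tlr4, Acan, Epyc, Dpt, Cd34, Ly6a and Dpp4 were added after their values were seen. Alternatives were pseudocount, filter, scaling, replicate block, trend, limma-voom on recovered fragments, Xist covariate, each lung left out, and, chosen after seeing the data, another gene length.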

Additional observations from a re-analysis of the deposited data

Results flagged for a closer look

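In 11 of 186 groups of 5 lungs, over 93 genes (the 10 proteoglycan genes, their neighbours and nearest profiles, the genes named from the 7 lists, Tlr2, Tlr4, Xist and the tested markers), 1 lung stood apart from the other 4 by a gap of more than 0.71 of the whole range. Chance gives about 5%. None of the 11 concerned one of the 10 proteoglycan genes. Xist was 0.0144 FPKM in IncPBF lung 1 and 52.4 to 66.5 FPKM in the other IncPBF lungs. Among the genes that modify or bind the proteins, Xylt1 was 1.02 FPKM in sham lung 5 and 0.759 to 0.826 FPKM in the other sham lungs. Col14a1 was 11.2 FPKM in IncPBF lung 3 and 14.02 to 14.8 FPKM in the other IncPBF lungs. Tgfb2 was 12.1 FPKM in sham lung 1 and 14.9 to 15.5 FPKM in the other sham lungs. Tlr2 was 2.10 FPKM in IncPBF lung 4 and 2.93 to 3.17 FPKM in the other IncPBF lungs. Among the markers, Ly6a was 86.7 FPKM in sham lung 4 (others 114 to 123 FPKM), Cspg4 was 5.51 FPKM in IncPBF lung 3 (others 4.42 to 4.73 FPKM) and Ibsp was 0.385 FPKM in sham lung 3 (others 0 to 0.0759 FPKM). Gm44421 was 1.04 FPKM in IncPBF lung 4 and 0.552 to 0.678 FPKM in the other IncPBF lungs. Gm15851, antisense to Prelp, was 0.0781 FPKM in IncPBF lung 1 and 0.0868 FPKM in sham lung 5, and listed at 0 in the other 8 lungs.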

How the results depend on the processing

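The calls and directions of Ogn, Prelp, Omd and Vcan were kept in all 21 alternatives, and 4 genes had no overlap in all 13 alternatives that could change this count. The number of the 10 genes called higher was 2 with an equal total per lung (Fmod joining) and 2 with a replicate block (Aspn joining), and 1 to 2 with each lung left out. The number called lower was 3 to 4. The replicate numbers did not pair the lungs (correlation of same-numbered deviations -0.0675 to 0.0854, and 2 of 10 lungs closest to their own number), and the block gave 4872 calls against 4970. The log2 fold change of biglycan turned to 0.047 with an equal total and to 0.0043 with quantile normalization. With an equal total the median of all genes was 0.092, against 0.014 in the main fit. The log2 fold change of biglycan also varied with the lungs used. It ran from -0.0794 to 0.0092 with each lung left out, the latter without sham lung 5. That of Aspn turned to -0.0503 with the Xist covariate. This covariate gave 328 genes called higher and 413 lower, and reduced the calls to 3 of 21 for chondroitin and dermatan sulfate genes, 0 of 4 for keratan sulfate, 1 of 11 for collagens, 3 of 13 for ligands and receptors and 0 of 3 for other leucine-rich genes. It takes 1 degree of freedom and leans on IncPBF lung 1, and the cause of the loss was not tested. The other leucine-rich genes also had 0 calls with no filter and 0 to 1 with each lung left out. Versican relatives had 0 to 1 calls (1 without sham lung 3) and keratan sulfate genes 2 with quantile normalization and 1 to 2 with each lung left out. Depth limits Omd most, at 12 to 23 fragments in IncPBF lungs.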
